A study of Mus musculus with 2 samples.

Results

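Glutamate receptor subunits and the proteins that assemble with them were examined in embryonic mouse forebrain with a conditional knockout of the histone variant H2A.Z. The group consists of 33 genes chosen by name, and all 33 were found among the 19720 genes listed in the deposited table. They comprise 4 AMPA, 5 kainate and 7 NMDA receptor subunits, 1 delta subunit, 6 metabotropic receptors, 4 auxiliary proteins of AMPA and kainate receptors, and 6 postsynaptic scaffold proteins. Total RNA was sequenced from 2 genotypes on a C57BL/6 background, H2AZcKO (conditional knockout of H2A.Z) and H2AZfl/fl (floxed H2A.Z alleles, titled WT, and the control here). No Cre line, treatment or pooling of animals is named in the labels. Tissue is described as telencephalic and the dissection as cerebral cortex. The titles give embryonic day 16 and a stage field gives embryonic day 12, so the labels do not settle the age. Triplicates are mentioned in the design text, but the deposited table has 1 count column per genotype, so each difference below is between 1 H2AZcKO column and 1 H2AZfl/fl column, with no replicates and no p-value. No source used here says whether a column is 1 library or several pooled, and each is called a library below.

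Ionotropic glutamate receptors are cation channels built from 4 subunits, and the AMPA, kainate and NMDA classes carry fast excitatory transmission. NMDA receptors need an obligatory GluN1 subunit together with GluN2 or GluN3 subunits, whose choice sets the kinetics and calcium entry of the channel. Metabotropic receptors signal through G proteins. In the developing forebrain GluN2B dominates before birth, GluN2A follows after birth, and GluN2D is known from thalamus, other deep structures and interneurons.

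Libraries held 9028523 reads in genes for H2AZcKO and 8474545 for H2AZfl/fl. Reads were scaled by TMM, and the log2 ratio of H2AZcKO to H2AZfl/fl is given with an exact 95% interval that covers counting error only. A gene counts as measured where both libraries together gave at least 20 reads, and as apart when it was at least 1.5-fold different and its interval left out a ratio of 1. H2afz, the targeted gene, had 535 reads in H2AZcKO and 1152 in H2AZfl/fl, a log2 ratio of -1.16 (-1.31 to -1.01). Of the 14366 measured genes, 2.02% were apart and higher in H2AZcKO and 3.20% apart and lower, and the median log2 ratio was 0.0018. Of the 33 glutamate receptor genes, 32 were measured, and the exception was Grin3b with 6 reads in each library.

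Most of the 33 genes differed little between the libraries, with a lean towards higher levels in H2AZcKO. Of the 32 measured, 26 had a log2 ratio above 0 and 6 below, where 50.4% of all measured genes were above 0. Their median was 0.23 and their range -0.89 to 0.91. An interval wholly above 0 was seen for 15 of the 32, against 12.5% of all measured genes, and 1, Cnih3, had an interval wholly below 0, against 9.30%. Narrow intervals come with many reads, so these shares also depend on how abundant the genes are. Of the 32, the 3 members Grin2d, Grik4 and Grm4 passed the 1.5-fold limit beyond counting error, all higher in H2AZcKO, and none was lower. Over all measured genes the shares were 2.02% higher and 3.20% lower. Each of the 3 had under 500 reads in the sum of both libraries. In bulk tissue, more or fewer cells of a type cannot be told apart from more or less RNA per cell.

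**Figure D1:**
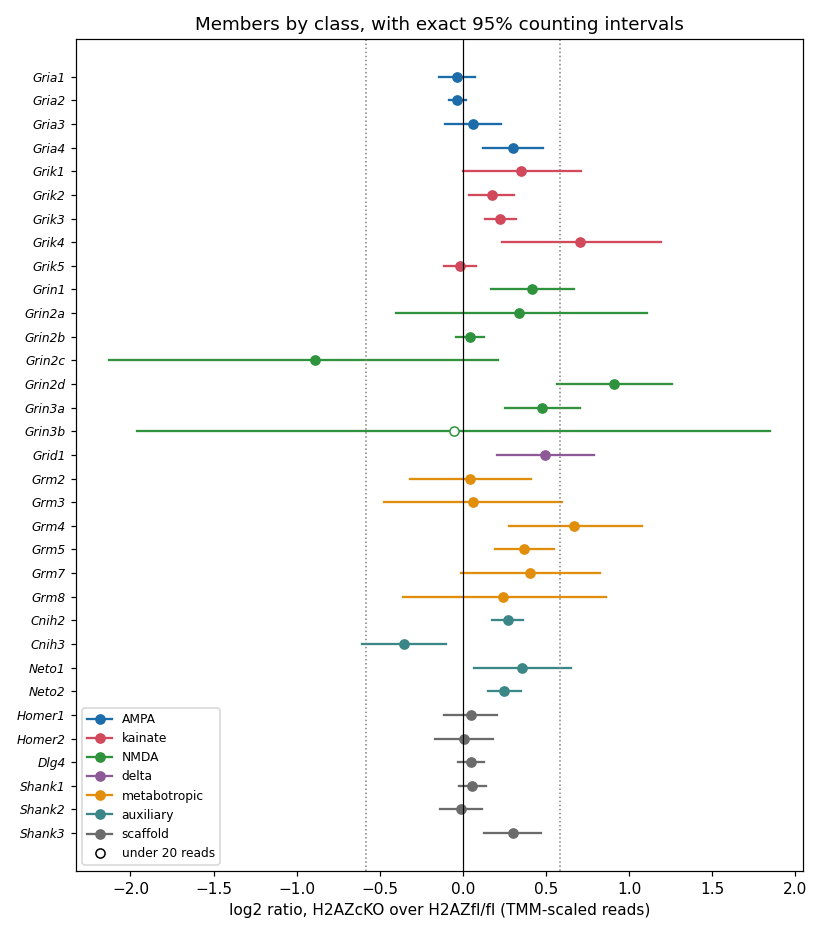
Log2 ratio of H2AZcKO over H2AZfl/fl for the 33 genes (horizontal axis), coloured by class, with exact 95% counting intervals as lines and the 1.5-fold limits as dotted lines. Grin2d, Grik4 and Grm4 lie beyond the upper limit with intervals clear of 0, and Grin2c, with 11 reads in H2AZcKO and 20 in H2AZfl/fl, lies beyond the lower limit with an interval that crosses 0.

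Sequences just upstream of 4 genes are shown to set genes from either side of level beside a level one: Grin1 and Gria4 were higher in H2AZcKO, Cnih3 was lower, and Gria2 was the most read AMPA subunit and level. Each is the 250 bases before the gene's RefSeq start in GRCm38.p6, written 5′ to 3′ on the gene's strand, and capitals mark CG dinucleotides. In all 4 this start is also that of the gene in the deposited table, and no annotated exon lies in the window. H2A.Z is known to occupy nucleosomes that flank transcription starts, but no chromatin measurement enters the values below.
Grin1 (chr2:25319188-25319437, minus strand): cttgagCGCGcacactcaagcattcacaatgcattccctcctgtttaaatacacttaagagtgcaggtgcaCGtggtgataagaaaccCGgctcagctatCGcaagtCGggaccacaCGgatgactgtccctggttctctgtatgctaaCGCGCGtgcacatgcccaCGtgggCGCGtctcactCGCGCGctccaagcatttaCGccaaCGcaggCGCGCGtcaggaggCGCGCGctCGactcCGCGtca
Gria4 (chr9:4796235-4796484, minus strand): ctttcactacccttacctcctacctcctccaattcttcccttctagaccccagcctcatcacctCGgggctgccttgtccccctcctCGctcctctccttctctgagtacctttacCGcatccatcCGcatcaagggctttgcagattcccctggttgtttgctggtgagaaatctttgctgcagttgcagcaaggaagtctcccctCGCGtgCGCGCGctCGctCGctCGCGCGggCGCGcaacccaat
Cnih3 (chr1:181352378-181352627, plus strand): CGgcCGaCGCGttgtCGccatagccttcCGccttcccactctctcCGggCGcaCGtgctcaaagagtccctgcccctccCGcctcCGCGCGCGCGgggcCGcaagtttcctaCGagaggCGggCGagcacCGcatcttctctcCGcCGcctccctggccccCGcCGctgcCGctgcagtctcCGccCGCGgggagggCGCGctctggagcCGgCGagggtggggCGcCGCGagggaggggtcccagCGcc
Gria2 (chr3:80802836-80803085, minus strand): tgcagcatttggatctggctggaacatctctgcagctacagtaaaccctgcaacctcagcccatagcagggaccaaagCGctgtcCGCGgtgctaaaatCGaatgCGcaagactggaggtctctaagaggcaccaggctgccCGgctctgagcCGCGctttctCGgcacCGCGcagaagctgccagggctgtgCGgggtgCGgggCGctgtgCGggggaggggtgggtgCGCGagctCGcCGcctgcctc
The windows of Grin1 and Cnih3, genes on opposite sides of level, held 27 and 36 CG dinucleotides. The Gria4 window held 16 and that of the level gene Gria2 held 19. These 4 windows were among the 6 that held no annotated exon and shared the deposited start. None of the 4 genes was apart, and whether CG number goes with the difference was not tested. RefSeq windows matched 21 of the 33 genes. An annotated exon lay in 9 of these 21, and some RefSeq starts were away from the deposited start, by 4247 bases for Grin2d. Over the 21 windows the median was 17 CG dinucleotides and 65.2% G or C, compared with 6 and 52.4% over all 32851 windows. The latter are not limited to genes measured here. The GC box GGGCGG, searched on both strands, was found in 12 of the 21 windows (57.1%) and in 32.7% of all windows, and the TATA box TATAAA in 1 (4.76%) and in 12.4%. These letters describe the windows and say nothing about factor binding.

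AMPA receptor genes were level as a class, with Gria4 the exception. Gria2, whose GluA2 subunit limits calcium entry after RNA editing, had 6410 reads in H2AZcKO and 6314 in H2AZfl/fl, a log2 ratio of -0.03 (-0.09 to 0.02). Gria1, encoding the GluA1 subunit known from activity-dependent trafficking, had 1388 reads in H2AZcKO and 1366 in H2AZfl/fl, a log2 ratio of -0.03 (-0.14 to 0.08). For both genes the interval leaves out a change of as much as 1.5-fold either way. Gria3, a further AMPA subunit, had 591 reads in H2AZcKO and 545 in H2AZfl/fl (0.06, -0.11 to 0.23). Gria4, whose GluA4 subunit is expressed early in development and in interneurons, had 573 reads in H2AZcKO and 448 in H2AZfl/fl, a log2 ratio of 0.30 (0.12 to 0.48), higher beyond counting error but under 1.5-fold. Summed over the class there were 8962 reads in H2AZcKO and 8673 in H2AZfl/fl, a log2 ratio of -0.01 (-0.05 to 0.03).

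Kainate receptor genes were slightly higher in H2AZcKO, apart from Grik5. Grik4, which encodes the high-affinity GluK4 subunit, stood furthest out, with 102 reads in H2AZcKO and 60 in H2AZfl/fl, 1.63-fold higher (1.18 to 2.29). It lies on chromosome 9 from 42518135 to 42944493 in the deposited table. Grik5, the other high-affinity subunit gene and the most abundant kainate subunit per length, had 1795 reads in H2AZcKO and 1747 in H2AZfl/fl (log2 ratio -0.02, -0.11 to 0.08). These 2 genes encode partners of the same kind, which need a low-affinity subunit to form a channel, and their ratio to each other differed between the libraries: 5.68 Grik4 reads per 100 Grik5 reads in H2AZcKO and 3.43 in H2AZfl/fl. Among the low-affinity subunits, Grik3 had 2169 reads in H2AZcKO and 1784 in H2AZfl/fl, a log2 ratio of 0.23 (0.13 to 0.32). Grik2 had 965 reads in H2AZcKO and 823 in H2AZfl/fl, a log2 ratio of 0.17 (0.04 to 0.31). Grik1 had 158 reads in H2AZcKO and 119 in H2AZfl/fl, a log2 ratio of 0.35, and its interval began at 8.1e-05, so it cleared 0 by a margin that other scalings decide. The class sum was 5189 reads in H2AZcKO and 4533 in H2AZfl/fl, a log2 ratio of 0.14 (0.08 to 0.20).

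Among NMDA receptor genes the most read, Grin2b, was level, and 3 others were higher beyond counting error. Grin2b, the embryonic GluN2 subunit gene, had 2301 reads in H2AZcKO and 2148 in H2AZfl/fl, a log2 ratio of 0.04 (-0.04 to 0.13). Grin2d, encoding the slowly deactivating GluN2D subunit, had 209 reads in H2AZcKO and 107 in H2AZfl/fl, 1.87-fold higher (1.48 to 2.39), the furthest of all members in that direction. It lies on chromosome 7 from 45831883 to 45870928. Grin3a, whose GluN3A subunit lowers calcium entry and is known from immature synapses, had 398 reads in H2AZcKO and 275 in H2AZfl/fl, a log2 ratio of 0.48 (0.25 to 0.70). Grin1, the obligatory subunit gene, had 322 reads in H2AZcKO and 232 in H2AZfl/fl (0.42, 0.17 to 0.67). Grin1, Grin2d and Grin3a were therefore each higher beyond counting error while Grin2b was within it. The remaining subunit genes were near the limit of counting. Grin2a, which replaces Grin2b after birth, had 37 reads in H2AZcKO and 28 in H2AZfl/fl (0.34, -0.40 to 1.11), and Grin2c, known mainly from cerebellum, had 11 in H2AZcKO and 20 in H2AZfl/fl (-0.89, -2.13 to 0.21). No difference was detectable at this depth for Grin2a, Grin2c or Grin3b. The class sum was 3284 reads in H2AZcKO and 2816 in H2AZfl/fl, a log2 ratio of 0.17 (0.09 to 0.24).

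Parts of some exons are shared with genes on the other strand, and no source used here gives the strand setting of the counting. The overlap covers 13.5% of Grin1 exon bases, shared with the antisense gene Grin1os, which had 3 reads in H2AZcKO and 7 in H2AZfl/fl. It covers 9.66% of Grin2d, 9.60% of Grm2 and 32.1% of Grin3b, where the neighbour is Tmem259, with 1011 reads in H2AZcKO and 993 in H2AZfl/fl. Other members had smaller overlaps with opposite-strand genes, up to 4.16% for Homer2, among them Shank3 (2.95%) and Neto1 (2.62%). The overlaps come from GENCODE M21, and the neighbours of Grin2d and Grm2 were not found by name in the deposited table. How many reads of all these genes fell in shared bases was not measured, so their values are uncertain.

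Grid1 was the single delta subunit in the group. It encodes GluD1, a synapse-organising receptor that binds cerebellins, and had 242 reads in H2AZcKO and 165 in H2AZfl/fl. Its log2 ratio was 0.49 (0.20 to 0.79), higher beyond counting error and under 1.5-fold.

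All 6 metabotropic receptor genes had log2 ratios above 0, and Grm4 was apart. Grm4, a presynaptic group III receptor gene, had 141 reads in H2AZcKO and 85 in H2AZfl/fl, 1.59-fold higher (1.21 to 2.11), and lies on chromosome 17 from 27422387 to 27513341. Grm5, a group I receptor gene coupled to phospholipase C, was the most read of the class, with 603 reads in H2AZcKO and 449 in H2AZfl/fl (log2 ratio 0.37, 0.19 to 0.55). These 2 genes had intervals wholly above 0. The other group III members, Grm7 and Grm8, had 117 and 53 reads in H2AZcKO and 85 and 43 in H2AZfl/fl, with log2 ratios of 0.40 (-0.01 to 0.82) and 0.24 (-0.36 to 0.86). The group II genes Grm2 and Grm3, which couple to inhibitory G proteins, were near level at 0.04 (-0.32 to 0.41) and 0.06 (-0.47 to 0.60). Grm2 had 132 reads in H2AZcKO and 123 in H2AZfl/fl, and Grm3 had 64 in H2AZcKO and 59 in H2AZfl/fl. Together the class had 1110 reads in H2AZcKO and 844 in H2AZfl/fl, a log2 ratio of 0.34 (0.21 to 0.47).

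The 2 cornichon genes, which encode AMPA receptor export and gating partners, differed in opposite directions. Cnih2 had 2123 reads in H2AZcKO and 1695 in H2AZfl/fl, a log2 ratio of 0.27 (0.18 to 0.36). Cnih3 had 236 reads in H2AZcKO and 290 in H2AZfl/fl, a log2 ratio of -0.35 (-0.61 to -0.10). There were 11.1 Cnih3 reads per 100 Cnih2 reads in H2AZcKO and 17.1 in H2AZfl/fl, a ratio of 0.65 (0.54 to 0.78) between the libraries. The kainate receptor partners Neto1 and Neto2 were both higher. Neto2 had 1855 reads in H2AZcKO and 1501 in H2AZfl/fl (log2 ratio 0.25, 0.15 to 0.35), and Neto1 had 233 in H2AZcKO and 175 in H2AZfl/fl (0.36, 0.07 to 0.65).

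Scaffold genes were level apart from Shank3. Dlg4, which encodes the postsynaptic density protein PSD-95, had 2632 reads in H2AZcKO and 2446 in H2AZfl/fl (log2 ratio 0.05, -0.03 to 0.13). Shank1 and Shank2, which link receptor complexes to actin, were at 0.06 (-0.03 to 0.14) and -0.01 (-0.14 to 0.12). Homer1 and Homer2, whose proteins bind group I metabotropic receptors, were at 0.05 (-0.11 to 0.21) and 0.01 (-0.17 to 0.18). Shank3 had 644 reads in H2AZcKO and 503 in H2AZfl/fl, a log2 ratio of 0.30 (0.13 to 0.47), and was the 1 scaffold gene of 6 with an interval clear of 0. Summed scaffold reads were 7986 in H2AZcKO and 7371 in H2AZfl/fl (0.06, 0.01 to 0.10). When scaled by library total this log2 ratio was 0.024, so whether the sum clears 0 depends on the scaling.

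Genes were also compared on one scale, TMM-scaled CPM per kilobase of exon, where the exon length is the union over all annotated transcripts of GENCODE M21 and can exceed that of the expressed one. Cnih2 had the highest level of the group, 174 in H2AZcKO and 144 in H2AZfl/fl. Gria2 followed with 46.2 in H2AZcKO and 47.3 in H2AZfl/fl, then Grik5 with 38.9 in H2AZcKO and 39.4 in H2AZfl/fl. Neto2 was at 33.9 in H2AZcKO and 28.6 in H2AZfl/fl. In H2AZcKO the next places went to Grik3 at 27.1, Shank1 at 26.0 and Gria1 at 25.7, and in H2AZfl/fl to Gria1 at 26.4, Shank1 at 24.98 and Grik3 at 23.2, an order that these small gaps in levels decide. The most abundant NMDA subunit gene, Grin2b, was at 10.4 in H2AZcKO and 10.1 in H2AZfl/fl. Grin2d was at 3.52 in H2AZcKO and 1.87 in H2AZfl/fl. Next to it stood Grin1, with 3.72 in H2AZcKO and 2.79 in H2AZfl/fl, and Grin3a, with 3.63 in H2AZcKO and 2.61 in H2AZfl/fl. The lowest levels were those of Grin3b, 0.204 in H2AZcKO and 0.212 in H2AZfl/fl, Grin2a, 0.231 in H2AZcKO and 0.182 in H2AZfl/fl, and Grin2c, 0.245 in H2AZcKO and 0.463 in H2AZfl/fl.

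**Figure D2:**
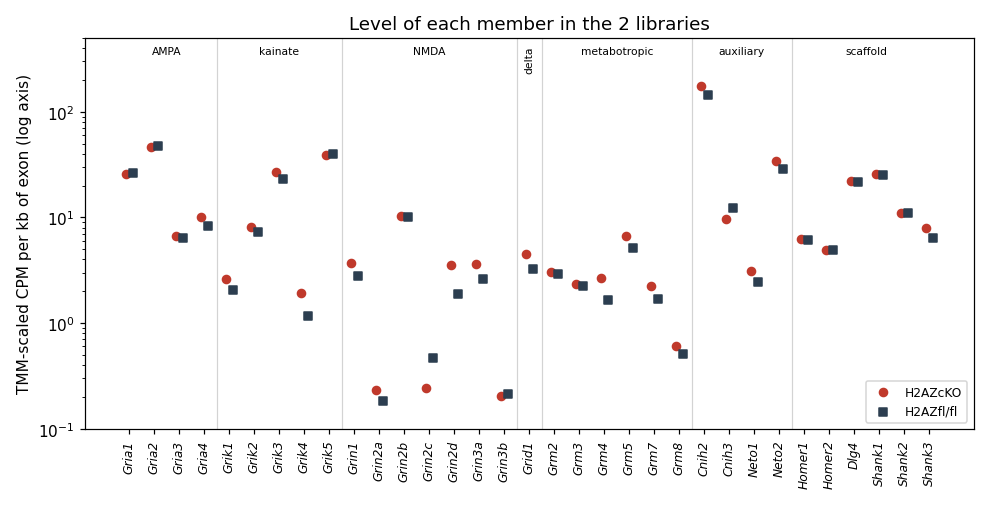
Level of each of the 33 genes in H2AZcKO (circles) and H2AZfl/fl (squares), as TMM-scaled CPM per kilobase of exon on a log axis, with classes separated by vertical lines. Levels run in H2AZcKO from 0.204 for Grin3b to 174 for Cnih2, and the circle of Grin2d stands above its square, at 3.52 in H2AZcKO and 1.87 in H2AZfl/fl.

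Genes with many reads stood closer to level than those with few. The 20 members with 500 or more reads in the sum had log2 ratios from -0.35 to 0.48 with a median of 0.06, and 15 of them were above 0. The 12 measured members under 500 reads ranged from -0.89 to 0.91 with a median of 0.35, and 11 were above 0. All 3 genes called apart are among these 12. Counting intervals had a median width of 0.26 on the log2 scale in the deeper set and 0.82 in the shallower one.

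Shares within a class need no scaling between libraries. Grin2b took 70.1% of NMDA subunit reads in H2AZcKO (exact 95% binomial interval 68.5 to 71.6) and 76.3% in H2AZfl/fl (74.7 to 77.8), and these intervals do not overlap. Grin2d took 6.36% in H2AZcKO (5.55 to 7.25) and 3.80% in H2AZfl/fl (3.12 to 4.57), and Grin3a 12.1% in H2AZcKO (11.02 to 13.3) and 9.77% in H2AZfl/fl (8.69 to 10.9). Among kainate subunits, Grik5 held 34.6% of reads in H2AZcKO (33.3 to 35.9) and 38.5% in H2AZfl/fl (37.1 to 39.97). The Gria2 share of AMPA reads was 71.5% in H2AZcKO (70.6 to 72.5) and 72.8% in H2AZfl/fl (71.9 to 73.7), with intervals that overlap. Division by exon length lowered the shares of the longest gene of the NMDA and AMPA classes. Per kilobase of exon Grin2b took 47.3% in H2AZcKO and 55.4% in H2AZfl/fl, and Gria2 took 52.0% in H2AZcKO and 53.5% in H2AZfl/fl.

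**Figure D3:**
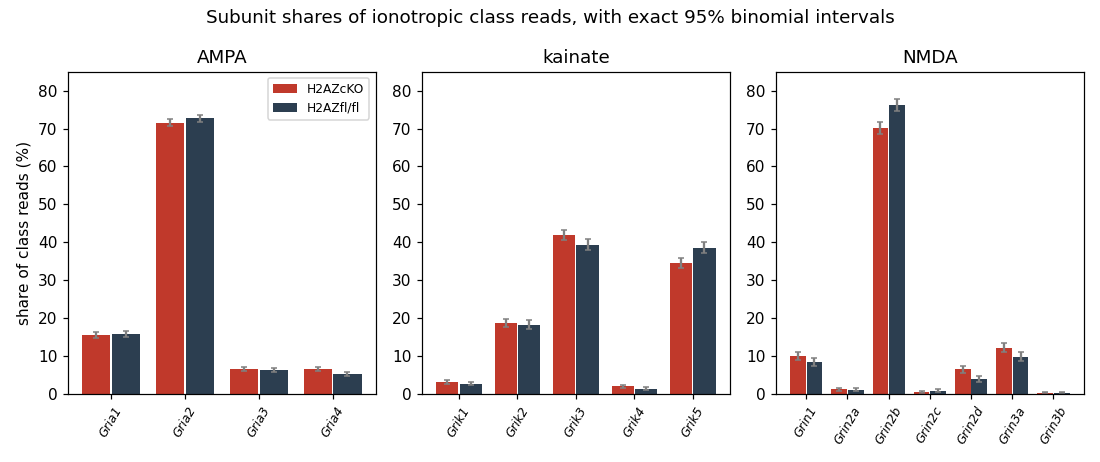
Share of the reads of each ionotropic class (vertical axis, percent) held by each subunit gene in H2AZcKO (left bars) and H2AZfl/fl (right bars), with exact 95% binomial intervals. Gria2 and Grin2b hold most reads of their classes in both libraries, and the Grin2b share is 70.1% in H2AZcKO and 76.3% in H2AZfl/fl.

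Ratios between related genes gave the same kind of scaling-free comparison. Of 15 pairs, chosen after the values had been seen, 7 had an exact 95% interval above 1, 1 had one below 1, and the others included 1. Several pairs set a higher gene over a level one, so this tally depends on the choice of pairs. The pair ratios restate the log2 ratios of their members and are no separate evidence. The ratio of Grin2d to Grin2b was 1.82 times as high in H2AZcKO as in H2AZfl/fl (1.43 to 2.34), with 9.08 Grin2d reads per 100 Grin2b reads in H2AZcKO and 4.98 in H2AZfl/fl. For Grin3a and Grin1 against Grin2b the factor was 1.35 (1.14 to 1.60) and 1.30 (1.08 to 1.56), and for Grik4 against Grik5 it was 1.65 (1.18 to 2.33). Gria4 to Gria2 differed by 1.26 (1.11 to 1.44), whereas Gria1 to Gria2 was level (interval 0.92 to 1.09). Between whole classes, there were 12.4 metabotropic reads per 100 AMPA reads in H2AZcKO and 9.73 in H2AZfl/fl, a factor of 1.27 (1.16 to 1.40). The factor against AMPA reads was 1.11 (1.05 to 1.16) for kainate, 1.13 (1.06 to 1.20) for NMDA, 1.18 (1.11 to 1.24) for auxiliary genes, 1.42 (1.16 to 1.74) for the single delta gene and 1.05 (1.004 to 1.10) for scaffold genes. AMPA had the lowest summed log2 ratio of the classes, so each class factor lies above 1 by the choice of reference. These factors restate the class sums and are no separate evidence.

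**Figure D4:**
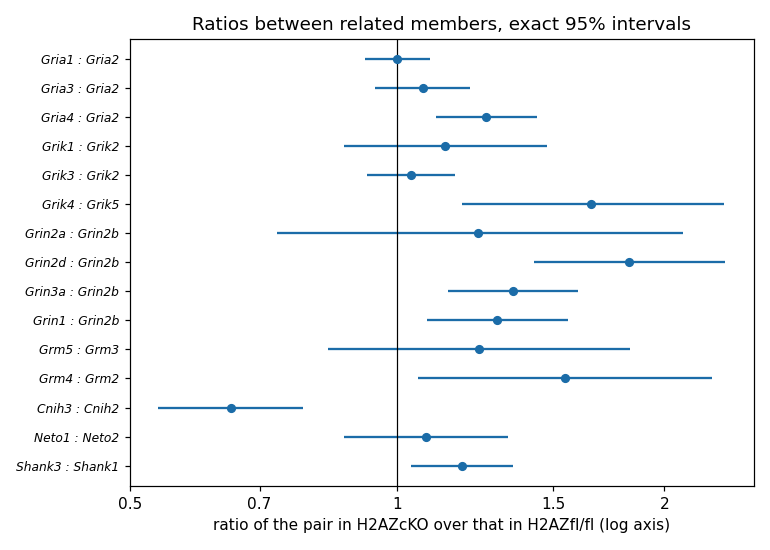
Ratio of reads of the first gene to the second in H2AZcKO, divided by the same ratio in H2AZfl/fl (log axis), for 15 pairs of related members, with exact 95% intervals as lines. Grin2d to Grin2b lies highest, at 1.82, and Cnih3 to Cnih2 is the single pair whose interval lies below 1.

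Other genes of glutamatergic signalling were also near level. Of 51 such genes, 50 were measured, with a median log2 ratio of 0.05, 37 above 0 and 13 below. The 40 of them with 500 or more reads in the sum had a median of 0.04, beside 0.06 for the 20 receptor genes of that depth, and the 10 under 500 reads had a median of 0.13, beside 0.35 for 12 receptor genes. Called apart were 2, both higher in H2AZcKO and none lower, beside 2.02% and 3.20% of all measured genes. Cacng3, a TARP that carries AMPA receptors to the surface, had 117 reads in H2AZcKO and 66 in H2AZfl/fl (log2 ratio 0.76, 0.32 to 1.23). Lin7a, an adaptor of the postsynaptic complex, had 366 reads in H2AZcKO and 205 in H2AZfl/fl (0.78, 0.53 to 1.03). The most read AMPA receptor partners were Cacng4 with a log2 ratio of 0.22 (0.14 to 0.30), Cacng7 at 0.01 (-0.09 to 0.11) and Shisa7 at 0.01 (-0.10 to 0.11). Slc17a6, the vesicular glutamate transporter gene of thalamus and embryonic cortex, had 704 reads in H2AZcKO and 672 in H2AZfl/fl (0.01, -0.14 to 0.17). Slc17a7, the transporter gene of cortical projection neurons, had 499 reads in H2AZcKO and 555 in H2AZfl/fl (-0.21, -0.39 to -0.03). The 3 RNA-editing genes lay between -0.01 and 0.07, and Adarb1, which encodes the enzyme that edits Gria2 transcripts, had 434 reads in H2AZcKO and 398 in H2AZfl/fl.

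Markers of neurons and of neighbouring brain regions also differed between the libraries. On the pan-neuronal list, 11 of 12 genes were above 0 with a median log2 ratio of 0.19 and a range of -0.09 to 1.11, and its summed level was 8659 TMM-scaled CPM in H2AZcKO and 7826 in H2AZfl/fl. Over all measured genes, 2.02% were apart and higher and 3.20% apart and lower. Of 13 thalamic markers, 7 were apart and higher, with summed CPM of 637 in H2AZcKO and 421 in H2AZfl/fl. Their median log2 ratio was 0.78 and their range -0.03 to 4.77, with Lhx9, Prox1 and Slc17a6 near 0. Tcf7l2 alone had 1017 reads in H2AZcKO and 111 in H2AZfl/fl. Shox2, at the upper end by its bound, had 85 reads in H2AZcKO and 0 in H2AZfl/fl. Of 16 markers of striatum and ventral telencephalon, 9 were apart and higher (1630 CPM in H2AZcKO and 1195 in H2AZfl/fl), and of 5 measured hypothalamic markers 3 were (91.6 CPM in H2AZcKO and 41.2 in H2AZfl/fl, summed over all 8 on the list), with Hmx2 and Hmx3 at 0 reads in H2AZfl/fl. Dorsal cortical neuron markers differed in both directions by small amounts, with 3 of 10 intervals wholly above 0, 5 wholly below, a median of 0.01, 0 apart, and 2993 CPM in H2AZcKO and 3034 in H2AZfl/fl. Radial glia markers had a median of -0.13 and 0 of 8 apart. On the choroid plexus list 5 of 5 measured genes were apart and lower in H2AZcKO (3.48 CPM in H2AZcKO and 758 in H2AZfl/fl, summed over the 6 genes), and on the meningeal list 6 of 6 (14.2 CPM in H2AZcKO and 223 in H2AZfl/fl). The part of these differences in the values of the receptor genes was not tested.

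**Figure D5:**
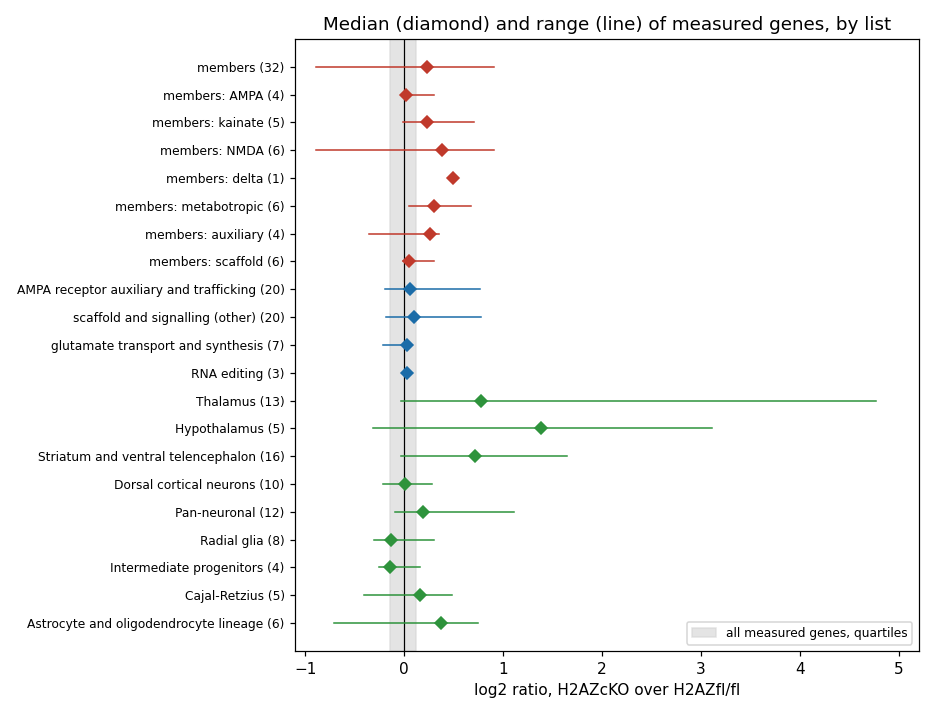
Median (diamond) and range (line) of the log2 ratio of H2AZcKO over H2AZfl/fl for measured genes of each list, with their number in brackets: receptor genes and their classes in red, other glutamatergic genes in blue and 9 of the 14 marker lists in green. The receptor genes have a median of 0.23 and the pan-neuronal list one of 0.19, but the lists are not matched for read depth. Receptor genes with 500 or more reads in the sum have a median of 0.06. The thalamic, hypothalamic and ventral lists lie further right. Shox2, at 0 reads in H2AZfl/fl, is drawn at its bound against 3 reads.

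In the authors' deposited table, 13 of the 33 genes have an adjusted p below 0.05, 12 of them higher in H2AZcKO and 1 lower. Over all genes of that table the shares are 3.36% and 4.07%. None of the 33 carries the authors' mark of significance, which 1.61% of all listed genes carry. No source used here names the test behind those values, and with 1 count column per genotype it compares these libraries and not the genotypes.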

How the data were processed

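Raw read counts per gene were deposited by the authors, 1 column for H2AZcKO and 1 for H2AZfl/fl, per the file headers. The deposited CPM columns are the same counts, with 0 entered as 0.5 read, divided by a constant per library. The authors' fold column is the ratio of H2AZfl/fl to H2AZcKO CPM, and the deposited log2 column its logarithm. Their deposited p-values come from a test that no source used here names. Libraries used 2 ug of total RNA and a TruSeq kit, per the labels' protocols, and the submitters' processing notes name TopHat2 2.0.12, Bowtie2 2.2.3, HTSeq 0.6.0 and mm9, with no roles; positions in the table are those of GRCm38.

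Counts of all genes were scaled by TMM in edgeR 4.0.16 (R 4.3.3), and log2 ratios took a prior of 0.5 read. Exact 95% intervals (Clopper-Pearson for the share of a gene's reads in either library and for class shares, conditional for odds ratios) used scipy 1.17.1 in Python 3.11.15. A bound against a library with 0 reads takes 3 reads in it. Symbols came from GENCODE M21 and matched 19616 of 19720 identifiers. No test between genotypes was possible. The calculation was run on counts simulated with counting error only, which covers neither the TMM step nor spread between animals. Every receptor gene was named, with Slc17a6, Slc17a7 and, of the other pathway genes, those apart and up to 3 of the most read per list; Adarb1 was among these 3. The genes and lists were chosen with earlier results of these data known. Alternatives changed the scaling (library total, DESeq2 1.42.0 size factors, upper quartile), the prior (5 reads), the read minimum (none or 100) and the fold limit (2).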

Additional observations from a re-analysis of the deposited data

How the results depend on the processing

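No paired analysis was possible because each genotype has 1 library, and no library could be left out. With a 2-fold limit, the count of receptor genes apart and higher was 0, and that of other glutamatergic genes 0, so these calls depend on the 1.5-fold limit. The log2 ratio of all receptor gene reads together was 0.0624 when scaled by library total and 0.1207 with DESeq2 size factors, both outside its counting interval of 0.0740 to 0.1206 but on the same side of 0. Of the 33 log2 ratios, 32 kept their sign when scaled by library total, 31 with DESeq2 size factors, and all 33 with upper-quartile scaling and with a prior of 5 reads. The AMPA median was 0.01 and turned to -0.02 when scaled by library total; the medians of the other classes and of all members kept their sign under each scaling, prior and read minimum tried, and the largest shift was that of the NMDA median, 0.38, to 0.45 with a minimum of 100 reads. Division by exon length moved 27 of 32 subunit shares by more than their counting error. Depth limits Grin2a, Grin2c and Grin3b, for which no difference could be detected.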
